A study of Mus musculus with 8 samples.

Results

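The Myc, Max and Mxd network was followed through mouse skeletal myogenic cells of teratoma and of adult muscle origin, before and after growth in culture. Its 9 genes were Myc, Mycn, Mycl, Max, Mxd1, Mxd3, Mxd4, Mnt and Mga. They were taken by name from a table of 24980 genes, and all 9 were among the 17582 genes with enough reads to be tested. The genes were picked with their levels in these libraries already known, so their values are given as a description, without p-values. P-values are given only for other genes. The lists of those genes were also chosen with earlier results of these data known, so their p-values and counts are descriptive too.

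RNA was sequenced from 8 libraries, 2 replicates in each of 4 groups. Freshly sorted teratoma-derived cells (TF) came from teratomas, mixed-tissue tumors, which formed from 1 line of mouse embryonic stem cells, E14-EGFP, injected into tibialis anterior muscle of NSG-mdx4Cv mice. That muscle had been irradiated and injured with cardiotoxin, and NSG-mdx4Cv mice lack functional lymphocytes and full-length dystrophin. The cells were sorted as EGFP+, CD31-, CD45-, α7-integrin+ and VCAM-1+, markers that keep myogenic progenitors and leave out endothelial and blood cells. Expanded teratoma-derived cells (TE) were such cells grown to passage 8. Freshly isolated satellite cells (SF) are the stem cells of adult muscle, and expanded satellite cells (SE) were satellite cells grown to the same passage. Cultures were kept on gelatin in an expansion medium. Teratoma-derived cells came out of a tumor in an injured host and satellite cells out of adult muscle, so origin and surroundings cannot be told apart. The mouse strain and the sort markers of the satellite cells are not given in the sources used here. The study describes the 2 libraries of a group as biological replicates, and no label pairs them across groups.

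Myc proteins are transcription factors of the basic helix-loop-helix leucine zipper class that bind DNA only when joined to Max. A Myc and Max dimer binds the E-box, CACGTG, and raises transcription of genes for growth, ribosome production and metabolism. Mxd proteins, Mnt and Mga compete for the same partner and repress, the Mxd proteins by bringing in the Sin3 histone deacetylase complex. In muscle, Myc is known to come on when satellite cells leave quiescence and to go down as myoblasts differentiate.

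Promoter sequence was available for 8 of the 9 genes. It ran from 250 bases before to 50 bases after the RefSeq start site, in build GRCm38.p6. The E-box CACGTG, searched on both strands, was present in 3 of them (Max, Mnt and Mxd4) and in 7.15% of all 32851 promoters of that length. Either of the E2F motifs TTTGGCGC and TTTCGCGC was present only in Mycn, against 0.813% of all promoters. The TATA motif TATAAA was present only in Mycl, against 13.6% of all promoters. A match of letters is a description and not evidence of binding. The promoters of Mycn and Mycl are shown because the make-up of Myc family RNA turned on these genes, and those of Max and Mxd4 because they hold the E-box that the network itself binds. Capitals mark the motif matches, and each strand reads 5′ to 3′ along the gene. The Mycn promoter is at chr12:12941787-12942086 on the minus strand, Mycl at chr4:122995681-122995980 on the plus strand, Max at chr12:76962199-76962498 on the minus strand and Mxd4 at chr5:34187661-34187960 on the minus strand.
Mycn: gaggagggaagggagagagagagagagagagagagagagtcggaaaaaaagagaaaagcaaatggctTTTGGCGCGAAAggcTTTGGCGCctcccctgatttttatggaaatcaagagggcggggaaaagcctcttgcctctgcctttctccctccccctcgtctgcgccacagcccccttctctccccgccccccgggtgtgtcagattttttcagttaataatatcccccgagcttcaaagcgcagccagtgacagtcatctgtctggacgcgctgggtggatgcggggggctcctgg
Mycl: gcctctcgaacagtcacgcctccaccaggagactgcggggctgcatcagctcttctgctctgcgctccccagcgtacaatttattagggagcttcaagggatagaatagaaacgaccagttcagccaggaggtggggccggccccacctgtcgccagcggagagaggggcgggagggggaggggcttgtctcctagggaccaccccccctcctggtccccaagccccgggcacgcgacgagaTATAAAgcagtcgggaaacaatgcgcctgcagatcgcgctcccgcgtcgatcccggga
Max: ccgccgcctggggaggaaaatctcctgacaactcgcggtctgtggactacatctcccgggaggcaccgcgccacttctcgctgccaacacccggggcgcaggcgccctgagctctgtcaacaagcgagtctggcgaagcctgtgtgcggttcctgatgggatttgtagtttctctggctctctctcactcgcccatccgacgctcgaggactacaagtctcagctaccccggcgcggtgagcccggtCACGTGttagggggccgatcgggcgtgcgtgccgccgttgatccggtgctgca
Mxd4: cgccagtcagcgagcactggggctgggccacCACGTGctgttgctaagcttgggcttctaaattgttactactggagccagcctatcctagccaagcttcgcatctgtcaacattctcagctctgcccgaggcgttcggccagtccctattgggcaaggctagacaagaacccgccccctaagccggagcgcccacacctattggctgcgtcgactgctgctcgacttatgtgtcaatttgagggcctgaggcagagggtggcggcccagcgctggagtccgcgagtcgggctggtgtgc
The 3 E2F matches of Mycn began 183, 179 and 168 bases before the start site, and the first and second of them overlap. The TATA match of Mycl began 8 bases before its start site, and the E-box began 3 bases before that of Max and 219 bases before that of Mxd4.

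Levels are given as CPM, the estimated counts of a gene scaled to the same library total in every sample by TMM. Folds are log2 fold changes with their standard error from 1 edgeR fit over the 4 groups. A gene was called at a Benjamini-Hochberg adjusted p below 0.05 and a log2 fold change above 0.32 in size. Library totals ran from 11930961 to 21146632 counts, which makes 3 counts, the limit of detection used here, worth between 0.141 and 0.252 CPM. The replicates of every group differed by more than counting noise, from a chi-square per degree of freedom of 12.1 in TE to 93.0 in SE. Pax7, the satellite cell transcription factor, was present in all 8 libraries at 78.2 CPM or more. Summed markers of fibro-adipogenic cells were 1684 and 1639 CPM in TF and 880 and 1483 CPM in SF, against 7.03 CPM at most in the expanded libraries. Summed endothelial markers were 92.8 to 395 CPM in the fresh libraries and 6.49 CPM at most in the expanded ones, where Kdr was at 0 throughout. Summed pericyte and smooth muscle markers were 685 to 928 CPM in fresh and 97.4 to 160 CPM in expanded libraries. Summed haematopoietic markers were 27.3 to 209 CPM in fresh and 3.20 to 10.9 CPM in expanded libraries. The 7 pluripotency markers summed to 30.6 and 13.6 CPM in TF, 1.06 and 0.0529 in TE, 13.3 and 8.45 in SF and 4.51 and 3.67 in SE. Most of the TF sum was Sox2, at 22.4 and 13.6 CPM, and Pou5f1 was at 0.673 CPM or less in all 8 libraries. The part of these cells in any level below was not tested. In bulk RNA, fewer cells of a type and less RNA per cell cannot be told apart.

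Myc, the ubiquitous activator of the family (chr15:61985391-61990374, plus strand), was by far highest in fresh satellite cells. It stood at 798 and 1065 CPM in SF, 144 and 168 in TF, 60.5 and 55.0 in TE, and 52.9 and 34.3 in SE. The 4 groups followed each other without overlap in the order SF, TF, TE and SE, although TE and SE differed by a ratio of means of only 1.32. Expanded satellite cells held 21.3-fold less Myc RNA than fresh ones (log2 fold change -4.42 ± 0.279). Expanded teratoma-derived cells held 2.71-fold less than fresh ones (log2 fold change -1.44 ± 0.248). Fresh teratoma-derived cells already held 5.96-fold less than fresh satellite cells (log2 fold change -2.57 ± 0.257), whereas the expanded populations differed by 0.40 ± 0.245 on the log2 scale.

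Immediate early genes, which are switched on within minutes of stimulation and respond to tissue dissociation, moved with Myc between fresh and expanded cells. The summed level of the 14 genes on that list was 14091 and 14514 CPM in TF and 13880 and 16193 CPM in SF, and it was 634 and 614 CPM in TE and 642 and 607 CPM in SE. All 14 fell with expansion in both origins (edgeR quasi-likelihood test, Benjamini-Hochberg adjustment). Among all tested genes 16.2% were called lower in TE versus TF and 19.8% in SE versus SF. Fosb, a subunit of the AP-1 transcription factor, fell by 10.07 on the log2 scale in TE versus TF (adjusted p = 4.27e-07) and by 10.75 in SE versus SF (adjusted p = 3.09e-07). The gap in Myc between SF and TF did not go with a like gap in the list, of which 1 gene, Egr2, was higher in TF (log2 fold change 0.90 ± 0.258, adjusted p = 0.0312), a call lost without any 1 of the 4 fresh libraries (0.78 to 1.02). EdgeR called 0 of the 14 lower in TF than in SF, 0 passed an unadjusted p of 0.05 in that direction, and DESeq2 called 3 lower. Of all tested genes 15.1% were called higher and 9.13% lower in that comparison. The part of the sort in the Myc level was not tested.

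Mycn, the family member of embryonic and neural progenitors (chr12:12936093-12941914, minus strand), was low in 3 groups and at 0 counts in both SE libraries. It stood at 6.64 and 7.02 CPM in TF, 7.77 and 11.7 in TE, and 7.56 and 11.2 in SF. TE and SF overlapped, and TF lay just under them. Set against 3 counts in each SE library, a mean limit of 0.156 CPM, Mycn was at least 62.3-fold higher in TE, at least 60.1-fold higher in SF and at least 43.7-fold higher in TF than in SE. Teratoma-derived cells thus kept Mycn RNA through expansion (TE versus TF, log2 fold change 0.51 ± 0.549), while expanded satellite cells had none that was detectable at this depth. The summed neural marker list was 129 and 137 CPM in TF, 123 and 104 in TE, 218 and 239 in SF, and 45.0 and 34.5 in SE. Most of the TE sum was Stmn2, at 80.6 and 66.9 CPM in TE and 28.7 and 15.7 in SE, and Dcx, at 31.8 and 28.7 against 6.04 and 10.7. Map2 was also higher in TE, at 2.72 and 3.11 CPM against 0.613 and 0.286 in SE. Sox1, Pax6 and Neurod1 went the other way, with Sox1 at 0 in both TE libraries and at 0.760 and 1.82 CPM in SE. Pax6 and Neurod1 were at 0.896 CPM or less in both groups. Tubb3 and Elavl3 overlapped between TE and SE, and Elavl4 was at 0 in both. Most of the SF sum was Map2, at 186 and 227 CPM. The part of other cells in the Mycn level was not tested.

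Mycl, a weaker activator with a tissue-restricted pattern (chr4:122995652-123002485, plus strand), ran opposite to Myc. It stood at 1.31 and 0.34 CPM in SF, 12.9 and 9.73 in TF, 35.6 and 38.4 in TE, and 41.1 and 92.7 in SE. The groups did not overlap, and the SE replicates were farther apart than those of any other group. In TE versus SE the log2 fold change was -0.85 ± 0.453, which was not called, and it was -0.15 without SE replicate 2. The SF value rested on 18 and 5 counts. Mycl was 81.6-fold higher in SE than in SF (log2 fold change 6.35 ± 0.610) and 3.26-fold higher in TE than in TF (1.70 ± 0.471). Without TF replicate 2 the latter was 1.55 and without TE replicate 2 it was 1.67, and neither then passed the call rule. Fresh teratoma-derived cells exceeded fresh satellite cells 13.8-fold (log2 fold change 3.79 ± 0.580). Without SF replicate 1 the SE versus SF value was 7.60 and the TF versus SF value 5.02, without SF replicate 2 the latter was 3.12 and without SE replicate 2 the former was 5.66, and all remained called.

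Genes of terminal muscle differentiation stood high in the same libraries as Mycl. The 10 genes of that list, with Myog, Mymk and the embryonic myosin gene Myh3 among them, summed to 122 and 95.2 CPM in SF, 1339 and 643 in TF, 7981 and 8517 in TE, and 7659 and 17083 in SE. SE replicate 2 was highest for the list and for Mycl alike, and TF replicate 1 was the higher TF library for both. SE replicate 1 did not match in this way. Its list sum was below both TE libraries, but its Mycl level, 41.1 CPM, was above theirs (35.6 and 38.4). In SE versus SF 9 of the 10 rose and in TE versus TF 8 rose, with 0 called lower (0 at an unadjusted p of 0.05, and 0 by DESeq2), where 20.9% and 9.86% of all tested genes were called higher. The part of differentiating cells in the Mycl level was not tested.

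**Figure D1:**
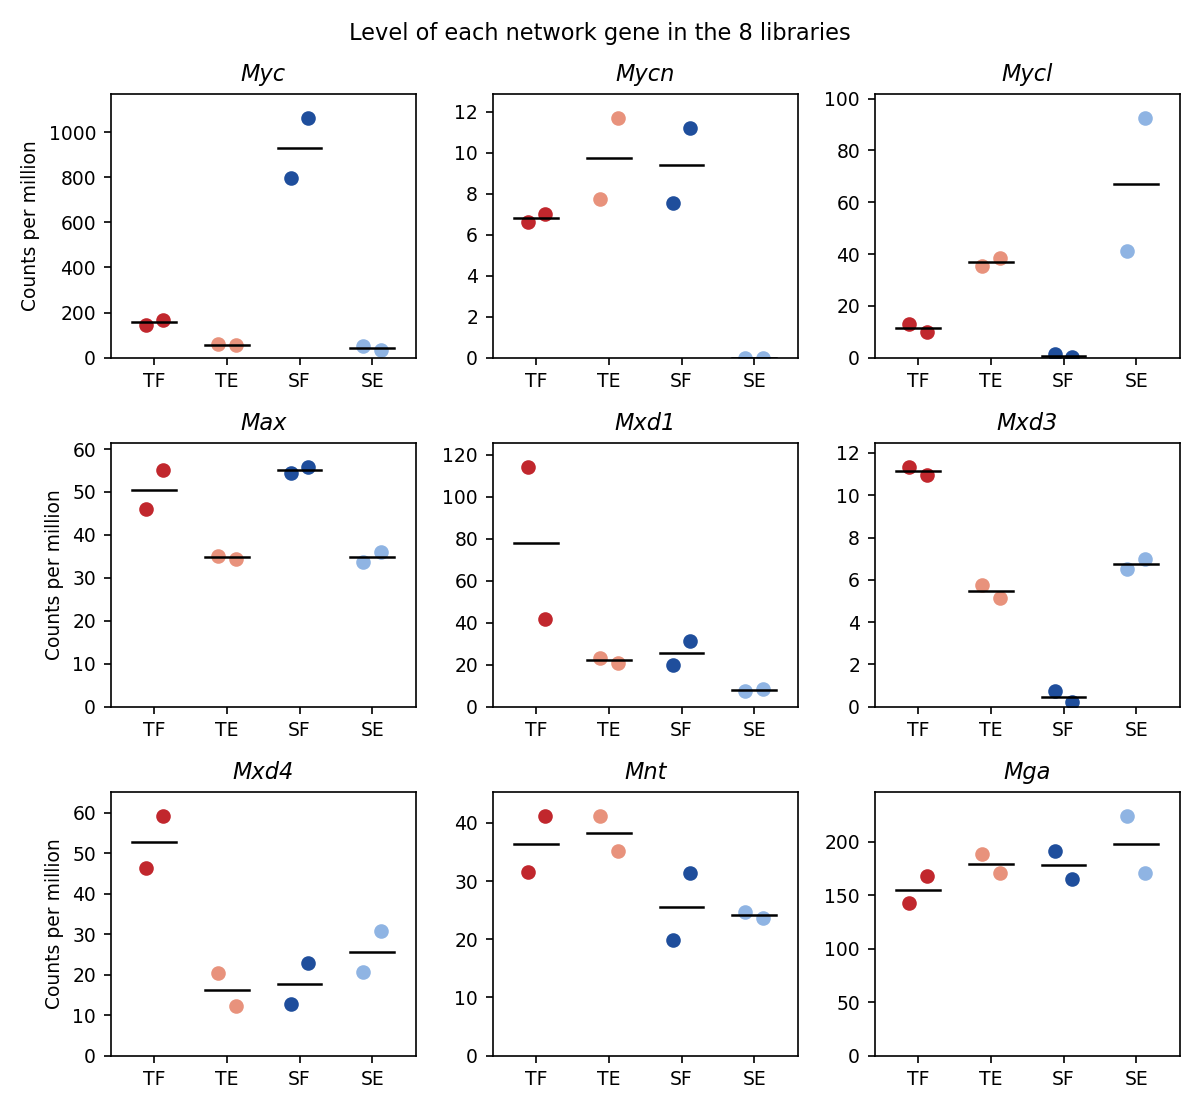
CPM (linear axis from 0, a scale of its own for each gene) of the 9 network genes in fresh (TF) and expanded (TE) teratoma-derived cells and fresh (SF) and expanded (SE) satellite cells. Points are the 2 libraries of a group and bars their mean. Myc is highest in SF, Mycl and Mxd3 are lowest in SF, Mycn is at 0 in SE, and Mga and Mnt stay within a narrow range.

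Per kilobase of exon, which allows genes to be set beside each other, the 3 activators made up different mixtures in the 4 groups. Myc formed 99.0% of their summed CPM per kilobase in SF (99.0% in each replicate) and 91.3% ± 1.59 (SD, n = 2) in TF. In TE it formed 61.7% ± 4.33, beside 28.2% ± 1.46 for Mycl and 10.1% ± 2.88 for Mycn. In SE, Myc formed 64.4% in replicate 1 and 34.2% in replicate 2, and Mycl made up all the rest, so that Mycl outweighed Myc in 1 SE library and not in the other. Fresh cells of both origins thus held mostly Myc, and in expanded cells Mycl was a large component. The sum itself was 346 CPM per kilobase in SF, 62.9 in TF, 34.4 in TE and 33.6 in SE. The expanded populations had nearly the same sum with a different make-up, TE with Mycn and SE without. With the longest transcript in place of the union of exons, Myc formed 63.5% in TE and 50.7% in SE. Without correction for length it formed 55.3% in TE and 41.6% in SE.

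**Figure D2:**
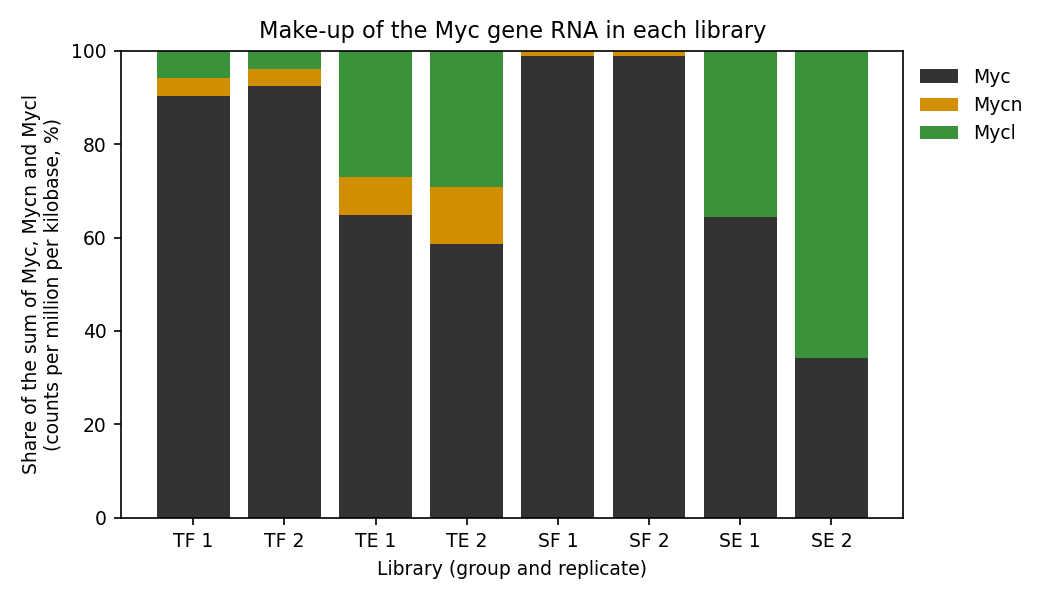
Share of each activator in the sum of Myc, Mycn and Mycl (percent of CPM per kilobase of exon) in each library. Myc fills 90.2% or more of every fresh library, Mycl takes 27.1% to 65.8% of the expanded ones, and Mycn is visible in TE and absent in SE.

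Max, the partner that the other members share (chr12:76937269-76962201, minus strand), varied little. It stood at 46.0 and 55.1 CPM in TF, 54.4 and 55.9 in SF, 35.1 and 34.4 in TE, and 33.7 and 35.9 in SE. The fresh groups overlapped each other, the expanded groups overlapped each other, and every fresh library was above every expanded one. Expanded cells held 1.45-fold less Max RNA in the teratoma origin (log2 fold change -0.54 ± 0.201) and 1.58-fold less in the satellite origin (-0.66 ± 0.201). The second passed the call rule and the first did not, and the call was lost when any 1 of the 8 libraries was left out, with values from -0.60 to -0.70. Activator RNA per unit of Max RNA, both per kilobase, was 10.7 and 13.9 in SF and between 1.75 and 2.51 in the other 6 libraries.

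Mxd1, the first described Mxd repressor and a gene of differentiating cells (chr6:86647042-86669161, minus strand), was highest in TF. It stood at 114 and 41.6 CPM in TF, 19.6 and 31.0 in SF, 23.2 and 20.8 in TE, and 7.64 and 8.18 in SE. TF replicate 1 was far above TF replicate 2, SF and TE overlapped, and SE was lowest. The log2 fold change was -1.82 ± 0.431 in TE versus TF and -1.68 ± 0.438 in SE versus SF. It was 1.62 ± 0.429 in TF versus SF and 1.48 ± 0.435 in TE versus SE, and the last was not called. Without TF replicate 1 the TF versus SF value was 0.72 and the TE versus TF value -0.90, and neither was called. The TF versus SF call was also lost without SF replicate 1 (1.31), the TE versus TF call without TE replicate 2 (-1.72) and the SE versus SF call without SF replicate 2 (-1.29). TF replicate 1 was also the library with the most blood cell markers, 209 CPM over 7 genes against 27.3 in TF replicate 2, with Ptprc, the gene of CD45, at 50.0 and 6.38 CPM. Endothelial markers summed to 304 CPM in TF replicate 1 and 92.8 in TF replicate 2. Genes of terminal muscle differentiation summed to 1339 and 643 CPM in TF, and to 7659 and 17083 in SE. Chromosome 6 carries Mxd1, and its 566 genes with at least 5 CPM on average had a median log2 difference of 0.81 in TF versus SF (0.27 over all chromosomes) and 0.58 in TE versus SE (0.02 over all chromosomes). The part of blood, endothelial or differentiating cells and of the chromosome in the Mxd1 level was not tested.

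Mxd3, the Mxd gene of cells in S phase (chr13:55325168-55329823, minus strand), was close to the limit of detection in fresh satellite cells alone. It stood at 11.4 and 10.9 CPM in TF, 5.75 and 5.15 in TE, 6.51 and 6.99 in SE, and 0.73 and 0.20 in SF. The SF libraries held 10 and 3 counts, and no other library held fewer than 99.2 estimated counts. The order TF, SE, TE and SF had no overlap between neighbours, although SE exceeded TE by a ratio of means of only 1.24. Mxd3 was 14.4-fold higher in SE than in SF (log2 fold change 3.85 ± 0.713) and 23.8-fold higher in TF than in SF (4.57 ± 0.731). In TE versus TF its log2 fold change was -1.03 ± 0.609, which was not called. Without SF replicate 1 the SE versus SF value was 5.01 and the TF versus SF value 5.72, and without SF replicate 2 they were 3.22 and 3.94, all still called.

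Proliferation genes were low in SF as Mxd3 was. The 12 genes of that list summed to 425 and 221 CPM in SF, 938 and 1032 in TF, 1121 and 1066 in TE, and 2006 and 882 in SE. In SE versus SF 9 rose and 1 fell, and in TF versus SF 9 were higher and 0 lower by edgeR, with 1 lower at an unadjusted p of 0.05 and 1 by DESeq2. Among all tested genes 20.9% and 15.1% were called higher in these comparisons. Mki67, which codes for the Ki-67 antigen of cycling cells, was 13.1 and 13.9 CPM in SF and at least 278 CPM in every other library (SE versus SF, log2 fold change 5.17 ± 0.417, adjusted p = 1.98e-05). In TE versus TF edgeR called 0 of the 12, with 1 higher and 0 lower at an unadjusted p of 0.05, and DESeq2 called 0. The count was 3 without the filter on low counts, 4 with only TF and TE in the fit and 2 without SE replicate 2. The part of dividing cells in the Mxd3 level was not tested.

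Mxd4, a repressor of resting and differentiated cells (chr5:34173883-34187720, minus strand), stood apart in TF. It was 46.4 and 59.3 CPM in TF, 20.6 and 30.7 in SE, 12.7 and 22.9 in SF, and 20.3 and 12.1 in TE. The TF libraries were above all others, and SE, SF and TE overlapped. The log2 fold change was -1.70 ± 0.382 in TE versus TF and 1.57 ± 0.382 in TF versus SF, whereas in SE versus SF it was 0.53 ± 0.376 and was not called. Without TE replicate 2 the first was -1.35 and not called. Without TF replicate 2 the second was 1.37 and without SF replicate 1 it was 1.19, and neither was called.

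Mxi1, the remaining Mxd gene, is outside the 9 and is given with p-values. It stood at 43.2 and 41.6 CPM in TF, 11.9 and 13.5 in TE, 28.0 and 32.6 in SF, and 20.9 and 24.2 in SE. It fell in TE versus TF, with a log2 fold change of -1.74 ± 0.250 and an adjusted p of 0.000865. In SE versus SF its log2 fold change was -0.42 ± 0.243 (adjusted p = 0.183), and the 2 changes differed by -1.31 ± 0.345 (adjusted p = 0.0332), a call lost without any 1 of the TF and TE libraries, SF replicate 1 or SE replicate 2 (-1.18 to -1.40). Within the summed CPM per kilobase of Mxd1, Mxd3, Mxd4 and Mxi1, Mxd3 made up 4.49% and 0.865% in SF and from 16.6% to 32.7% in every other library. Mxd1 made up 10.9% and 9.42% in SE and at least 23.1% elsewhere. The repressor mixture thus differed between groups too, with SF short of Mxd3 and SE short of Mxd1.

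Mnt, the broadly expressed Max partner and repressor (chr11:74830920-74845725, plus strand), stayed between 19.9 and 41.2 CPM. Its group means ran from 24.2 in SE to 38.2 in TE, a ratio of 1.58, and it was called in no comparison. Its largest difference was TE versus SE, at a log2 fold change of 0.66 ± 0.282. Mga, which joins Max and carries a T-box domain and is the scaffold of the polycomb complex PRC1.6 (chr2:119897228-119969581, plus strand), stayed between 142 and 224 CPM. Every pair of neighbouring groups overlapped, the ratio of the highest to the lowest group mean was 1.27, and its log2 fold changes lay between -0.20 and 0.21. Max, Mnt and Mga thus had the narrowest ranges of the 9, but 2 libraries a group would not show a small difference.

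Set against the repressors, the activator sum stood out only in fresh satellite cells. The sum of Myc, Mycn and Mycl over that of Mxd1, Mxd3 and Mxd4, per kilobase, was 37.1 and 31.2 in SF. It was 1.31 and 2.07 in TF, 2.36 and 3.01 in TE, and 2.55 and 2.47 in SE. On this ratio, which leaves out Mnt and Mga, the 2 fresh populations were at the opposite ends, and the 2 expanded populations lay close together. SF had the most activator RNA and TF the most Mxd RNA. With Mxi1 counted among the repressors the ratio was 24.3 and 22.5 in SF and from 1.14 to 2.56 elsewhere. With Mnt and Mga counted as well, the activators made up 90.7% and 91.6% of activators and repressors together in SF. They made up 46.2% and 52.9% in TF, 46.9% and 50.8% in TE, and 45.3% and 50.7% in SE. On that measure TF overlapped both expanded groups. These are ratios of RNA, and protein was not measured in these libraries.

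**Figure D3:**
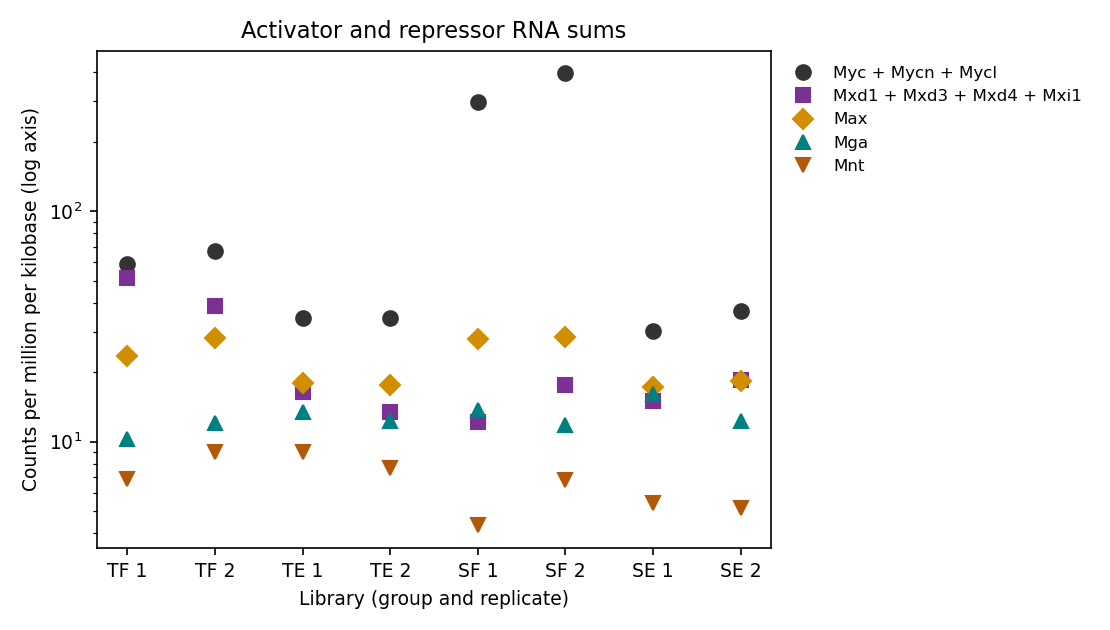
Summed level of the activators (Myc, Mycn and Mycl), of the Mxd repressors with Mxi1, and of Max, Mga and Mnt in each library, in CPM per kilobase of exon on a log axis. The activator sum is 297 and 396 in SF and 67.0 or less elsewhere, and the Mxd sum is 51.5 and 38.7 in TF and 18.6 or less elsewhere.

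Counted over the network, 4 of the 9 genes were called in TE versus TF (1 higher, 3 lower), where 26.1% of all tested genes were called. In SE versus SF 6 were called (2 higher, 4 lower) against 40.7% of all genes, and in TF versus SF 5 (4 higher, 1 lower) against 24.2%. In TE versus SE 1 was called, Mycn, against 7.21%. Where TE versus TF was set against SE versus SF, as the log2 change of the former minus that of the latter, 5 were called against 14.3%. The genes were chosen on these same values, so nothing is read from these counts. Without TE replicate 2 the TE versus TF count was 1, without SF replicate 1 the TF versus SF count was 3, and without either TF library the TE versus SE count was 2. The median log2 fold change of the 9 was -0.54 in TE versus TF (-0.18 over all tested genes), -0.08 in SE versus SF (-0.23), 0.51 in TF versus SF (0.08) and -0.00 in TE versus SE (-0.00). Over genes with at least 5 CPM on average the median was 0.09, 0.29, 0.27 and 0.02 in the same order. TF is shared by 2 of these comparisons, and so is each other group, so the comparisons are not independent.

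The 2 effects of expansion lay furthest apart for Myc, Mycn, Mycl, Mxd3 and Mxd4. The difference was 2.98 ± 0.352 for Myc, which was lower after expansion in both origins but more so in satellite cells. It was -4.65 ± 0.738 for Mycl, which was higher after expansion in both, again more so in satellite cells. For Mycn it was at least 6.42, with SE set at its limit of detection. For Mxd3 it was -4.88 ± 0.933 and for Mxd4 -2.23 ± 0.534. The Mxd3 change in TE versus TF (-1.03 ± 0.609) and the Mxd4 change in SE versus SF (0.53 ± 0.376) were not called, so neither gene had a called change in both origins. The Mxd4 call was lost without TF replicate 2 (-2.03), TE replicate 2 (-1.90) or SF replicate 1 (-1.84). For Max, Mxd1, Mnt and Mga the difference lay between -0.14 and 0.15.

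**Figure D4:**
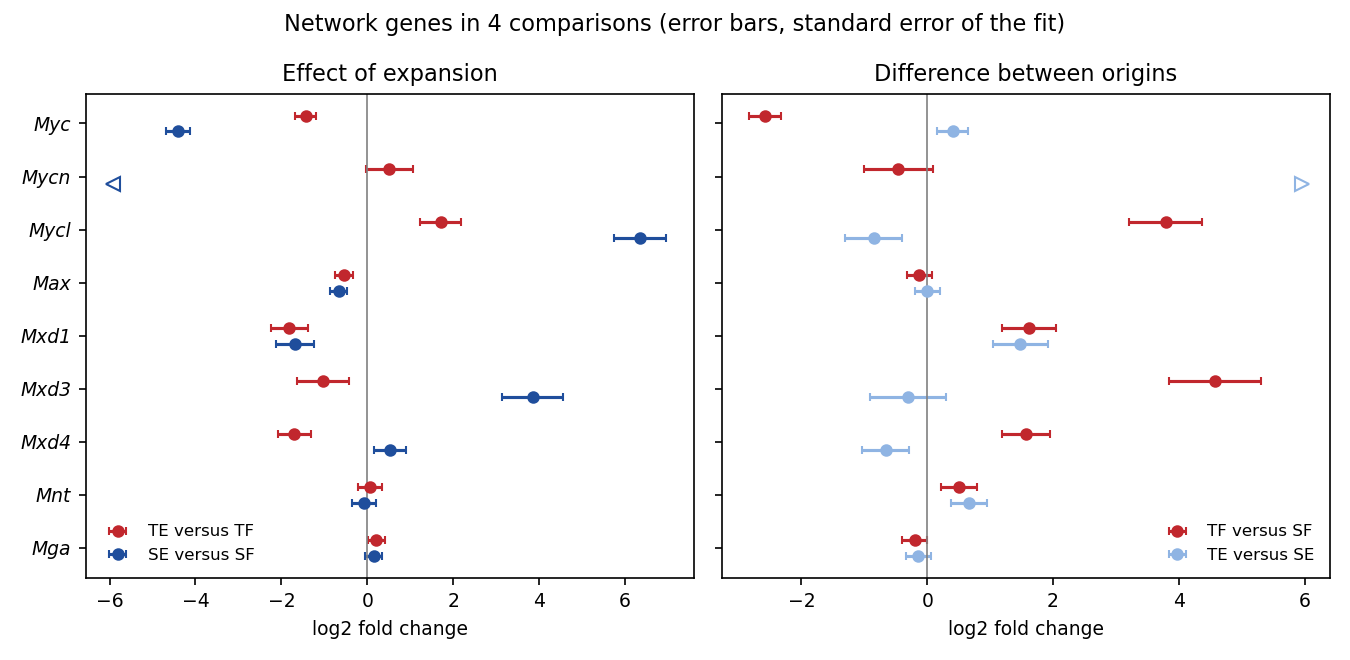
Log2 fold change of each network gene with expansion (left, TE versus TF and SE versus SF) and between origins (right, TF versus SF and TE versus SE). Bars are the standard error of the fit, and open arrowheads for Mycn mark the least change when SE is set at the limit of detection, 60.1-fold lower than SF and 62.3-fold lower than TE. The origins lie apart for Myc, Mycl and Mxd3 in fresh cells and close together in expanded ones.

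The Mlx branch runs parallel to the Myc branch, with Mlx in the place of Max. Mlx itself stayed between 8.02 and 13.9 CPM and was called in no comparison. Mlxip, which codes for the glucose sensor MondoA, stood at 123 and 139 CPM in SF, 59.0 and 46.2 in TF, 40.8 and 40.2 in TE, and 22.2 and 32.8 in SE. It fell in SE versus SF (log2 fold change -2.26 ± 0.242, adjusted p = 9.17e-05) and was lower in TF than in SF (-1.32 ± 0.235, adjusted p = 0.00389). Mlxipl, which codes for the related glucose sensor ChREBP, was 28.9 and 33.9 CPM in SF and 1.35 or less in every other library. It was lower in SE (log2 fold change -6.43 ± 1.12, adjusted p = 0.00156) and in TF (-5.04 ± 1.04, adjusted p = 0.00784) than in SF, and its 2 SE libraries held 0 and 13 counts. Fresh satellite cells thus had the highest level of Myc, Mlxip and Mlxipl alike.

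Among the genes around the network, Pvt1, a long noncoding RNA gene next to Myc, did not follow it. It stood at 21.3 and 23.5 CPM in SF and 23.6 and 21.7 in SE, where Myc was lowest, and at 1.85 to 5.03 in the 4 teratoma-derived libraries. It was lower in TF than in SF (log2 fold change -2.70 ± 0.482, adjusted p = 0.00394). Igf2bp2, which codes for an RNA-binding protein of the family that stabilizes Myc RNA, rose in TE (2.23 ± 0.198, adjusted p = 5.12e-05) and in SE (1.39 ± 0.192, adjusted p = 0.000401). Its relative Igf2bp1 was 76.8 and 75.0 CPM in TE and 2.97 and 4.86 in SE (log2 fold change 4.28 ± 1.005, adjusted p = 0.0330). Of 8 genes that act on Myc RNA, 3 rose in TE versus TF, among them Fubp1 (0.70 ± 0.185, adjusted p = 0.0206), and in SE versus SF 2 rose and 1, Igf2bp3, fell (-1.84 ± 0.624, adjusted p = 0.0399). Over all tested genes 26.1% were called in either direction in TE versus TF and 40.7% in SE versus SF. The 37.5% of these 8 called in each was near that share. By direction, 9.86% of all tested genes were called higher and 16.2% lower in TE versus TF. With any 1 of the 4 TF and TE libraries left out, the first count was 1 and Fubp1 was not called (0.71 to 0.75). With any 1 of the TE, SF and SE libraries left out Igf2bp3 was not called (-1.61 to -2.06), and the SE versus SF count was 1 without either TE library or SE replicate 1.

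Of 15 genes that act on Myc protein stability, 5 rose and 0 fell in TE versus TF (0 fell at an unadjusted p of 0.05 or by DESeq2), and 9 rose and 3 fell in SE versus SF. That is 33.3% and 80% of the list, against 26.1% and 40.7% of all tested genes in either direction. By direction, 9.86% of all tested genes were called higher and 16.2% lower in TE versus TF. Aurka, a mitotic kinase that also stabilizes N-Myc protein, rose in TE from 7.99 and 5.34 to 25.9 and 18.6 CPM (log2 fold change 1.74 ± 0.425, adjusted p = 0.0146). Usp28, a deubiquitinase of Myc, rose in TE by 1.57 ± 0.430 (adjusted p = 0.0244). Both genes also stood higher in SE than in SF. Aurka was 37.5 and 19.8 CPM in SE against 2.69 and 3.23 in SF, and Usp28 was 62.6 and 133 against 21.1 and 10.2. Cip2a, an inhibitor of the phosphatase that destabilizes Myc, rose in SE versus SF by 3.92 ± 0.455 (adjusted p = 0.000142), and Plk1 rose by 4.47 ± 0.699 (adjusted p = 0.000848). Aurka and Plk1 are also genes of mitosis. The proliferation list summed to 938 and 1032 CPM in TF, 1121 and 1066 in TE, 425 and 221 in SF, and 2006 and 882 in SE. The part of dividing cells in these levels was not tested. The TE versus TF count was 1 without TF replicate 2, 3 without TE replicate 1 and 2 without TE replicate 2. Aurka was not called without TF replicate 2 or TE replicate 1 (1.51 in each case), nor Usp28 without TF replicate 2 (1.31) or TE replicate 2 (1.45).

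Of 14 coactivators of Myc, 4 rose in TE versus TF and 0 fell (0 at an unadjusted p of 0.05 and 0 by DESeq2), and 4 rose and 2 fell in SE versus SF. Taken in either direction, these shares, 28.6% and 42.9%, were near the 26.1% and 40.7% called among all tested genes. By direction, 9.86% of all tested genes were called higher and 16.2% lower in TE versus TF. Ruvbl2, a helicase subunit of the TIP60 acetyltransferase complex, rose in TE (log2 fold change 1.07 ± 0.350, adjusted p = 0.0495) and in SE (2.00 ± 0.360, adjusted p = 0.00188). Its partner Ruvbl1 rose in TE (0.87 ± 0.232, adjusted p = 0.0220), and Smarcb1, a subunit of the SWI/SNF complex, rose in SE (1.80 ± 0.210, adjusted p = 0.000145). With TF or TE libraries left out in turn the TE versus TF count was 0 without TE replicate 2 and 1 without any of the others, and with the replicate number as a block it was 2. Ruvbl2 in TE was not called without any 1 of these 4 libraries (0.86 to 1.30), under the block (1.06) or with median-ratio scaling (1.01), nor Ruvbl1 without TF replicate 2 or either TE library (0.71 to 0.91). With median-ratio scaling the SE versus SF count was 4 up and 4 down.

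Of 16 genes of the Sin3 complex that Mxd proteins bring in, 3 rose and 1 fell in TE versus TF, and 5 rose and 3 fell in SE versus SF. The share called was 25% and 50%, against 26.1% and 40.7% of all tested genes. Sap30, which codes for a subunit of that complex, rose in TE (1.52 ± 0.399, adjusted p = 0.0199) and in SE (2.55 ± 0.416, adjusted p = 0.00108), and Rbbp4 rose in SE (1.79 ± 0.170, adjusted p = 4.63e-05). The 1 gene that fell in TE was Arid4a (-0.81 ± 0.189, adjusted p = 0.0118). With median-ratio scaling these counts were 3 and 2 in TE versus TF and 4 and 4 in SE versus SF, and without TE replicate 2 the TE versus TF count was 0. It was 1 without any of the other TF and TE libraries. Sap30 in TE was not called without TF replicate 2 (1.19) or TE replicate 2 (1.41), nor Arid4a without TF replicate 1 or either TE library (-0.66 to -0.83).

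Of 10 partners of Mga in PRC1.6, 1 rose in TE versus TF and 4 rose with 1 falling in SE versus SF. Among all tested genes 9.86% were called higher in TE versus TF, against 10% here, and 40.7% were called in SE versus SF, against 50% here. Pcgf6, the subunit that defines the complex, rose in TE from 2.86 and 3.43 to 9.68 and 13.3 CPM (1.87 ± 0.580, adjusted p = 0.0400), and this call was lost without any 1 of the TF and TE libraries (1.65 to 2.11). E2f6, its E2F subunit, rose in SE (1.61 ± 0.270, adjusted p = 0.00125). Rybp was higher in TE than in SE (1.23 ± 0.196, adjusted p = 0.00555). Cbx3 rose in SE as well (1.70 ± 0.220, adjusted p = 0.000273), but it has near-identical copies in the genome and its estimated counts are uncertain.

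Known target genes of Myc were read from a list of 79, of which 38 make ribosomes, 27 serve metabolism and 14 the cell cycle and translation. In TE versus TF 38 of the 79 rose and 0 fell, against 9.86% and 16.2% of all tested genes, in the comparison in which Myc RNA was lower in TE. At an unadjusted p of 0.05 1 of the 79 was lower, and DESeq2 called 1 lower. The median log2 fold change of the list was 0.77, against -0.18 over all genes and 0.09 over genes with at least 5 CPM on average. The count was 19 without TE replicate 1, 21 without TF replicate 1, 22 without TE replicate 2 and 25 without TF replicate 2.

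Ribosome genes made up most of that count, with 27 of 38 higher. Their summed level was 3279 and 3364 CPM in TF and 6254 and 6239 CPM in TE. Nop2, a ribosomal RNA methyltransferase, rose from 45.0 and 56.2 to 160 and 188 CPM (log2 fold change 1.78 ± 0.207, adjusted p = 0.000245), and Rrp12, a ribosome export factor, rose 3.03-fold (adjusted p = 0.00119). Without TE replicate 1 the count was 11, without TF replicate 1 it was 13, without TE replicate 2 it was 14 and without TF replicate 2 it was 17. Of the metabolic targets 9 of 27 rose, or 14 with 2 lower when only TF and TE were in the fit. Slc7a5, an importer of large amino acids, rose from 98.9 and 113 to 825 and 807 CPM (2.94 ± 0.294, adjusted p = 0.000100), and Shmt2, the mitochondrial serine hydroxymethyltransferase, rose by 2.54 ± 0.184 (adjusted p = 1.57e-05). Among cell cycle and translation targets 2 of 14 rose, E2f2 (2.11 ± 0.259, adjusted p = 0.000341) and the DNA repair gene Apex1 (1.76 ± 0.310, adjusted p = 0.00280). With only TF and TE in the fit 7 of the 14 rose and 1 fell, and with 1 SF or SE library left out 4 to 6 rose.

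In SE versus SF, where the Myc level differed most, the targets split. Of the 79, 27 rose and 15 fell, against 20.9% and 19.8% of all genes. The median of the 79 was 0.49, against -0.23 over all genes and 0.29 over genes with at least 5 CPM on average. With median-ratio scaling 22 rose and 19 fell, without SF replicate 2 the split was 27 and 7, and without SE replicate 1 it was 17 and 11. Ribosome genes went both ways, 7 up and 9 down, or 3 up and 12 down with median-ratio scaling, and their summed level overlapped at 4774 and 6110 CPM in SF and 5898 and 4568 in SE. Nop58, a core protein of box C/D particles, fell from 404 and 519 to 142 and 110 CPM (-1.88 ± 0.209, adjusted p = 0.000113), and Rrp9 fell by 1.84 on the log2 scale (adjusted p = 0.000912). This split turned on single libraries, with 2 up and 8 down without SF replicate 1, 7 up and 3 down without SF replicate 2, and 1 up and 6 down without SE replicate 1. With only SE and SF in the fit it was 4 up and 6 down. Metabolic targets rose in 12 of 27 and fell in 5. Ldha, the lactate dehydrogenase of glycolysis, rose from 105 and 127 to 885 and 784 CPM (2.85 ± 0.211, adjusted p = 1.17e-05), and Eno1, an enolase with near-identical copies and so an uncertain count, had a log2 fold change of 4.42 ± 0.240 (adjusted p = 2.79e-06). Of the cell cycle and translation targets 8 of 14 rose and 1 fell, led by Plk4 (3.93 ± 0.609, adjusted p = 0.000806) and E2f2 (3.11 ± 0.291, adjusted p = 4.29e-05).

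Between the fresh populations, ribosome genes were lower in TF, where Myc was lower too. In TF versus SF 17 of the 38 were lower and 0 higher (0 at an unadjusted p of 0.05 and 0 by DESeq2), with a median of -0.65. Ppan, a ribosome assembly factor, was 14.1 and 16.4 CPM in TF and 67.0 and 108 CPM in SF (-2.52 ± 0.288, adjusted p = 0.000450). Metabolic targets split with 6 higher and 5 lower (3 and 2 without TF replicate 1), and Odc1, the first enzyme of polyamine synthesis and a classic Myc target, was lower in TF (-2.54 ± 0.400, adjusted p = 0.00213). Over all 79, 11 were higher and 23 lower, against 15.1% and 9.13% of all genes, and without TF replicate 1 these were 8 and 14. Between the expanded populations 6 were higher and 4 lower in TE than in SE, against 3.15% and 4.07%, and without either TE library these were 2 and 1. E2f2 was 115 and 118 CPM in TE and 15.5 and 25.0 in SE (2.53 ± 0.263, adjusted p = 0.000665), and Rrp9 was higher in TE (1.21 ± 0.287, adjusted p = 0.0350). The Rrp9 call was lost without either TE library or SE replicate 1 (0.92 without the latter).

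The 2 effects of expansion on the targets also differed. Of the 79, 20 had a more positive change in the teratoma origin and 9 a more negative one, against 4.70% and 9.62% of all genes. Without TF replicate 1 or TE replicate 2 these counts were 12 and 8, and without TE replicate 1 they were 13 and 8. All 15 ribosome genes called were more positive, with 0 the other way (0 at an unadjusted p of 0.05 and 0 by DESeq2), and Rrp9 differed most (2.68 ± 0.408, adjusted p = 0.00289). That count was 8 without TF replicate 1, 9 without TE replicate 1 and 8 without TE replicate 2, and DESeq2 gave 23.

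Genes that Myc is known to repress were 8. In TE versus TF 2 rose and 4 fell, against 9.86% and 16.2% of all tested genes, and in SE versus SF 2 rose and 5 fell, against 20.9% and 19.8%. Gadd45b (-2.78 ± 0.401, adjusted p = 0.000880) and Klf6 (-2.18 ± 0.183, adjusted p = 3.75e-05) fell in TE. Both are also genes of the response to stress, as the immediate early genes are, and the part of that response in their levels was not tested. Ndrg1, a stress and differentiation gene, fell in SE from 584 and 798 to 4.81 and 7.49 CPM (-6.82 ± 0.316, adjusted p = 1.37e-06). Cdkn2b, which codes for the cell cycle inhibitor p15, rose in SE from 1.38 and 0.34 to 78.5 and 46.4 CPM (6.19 ± 0.590, adjusted p = 4.68e-05). In TE versus SE 4 of the 8 were higher and 1 lower, against 3.15% and 4.07% of all tested genes. Both counts were smaller without either TE library.

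**Figure D5:**
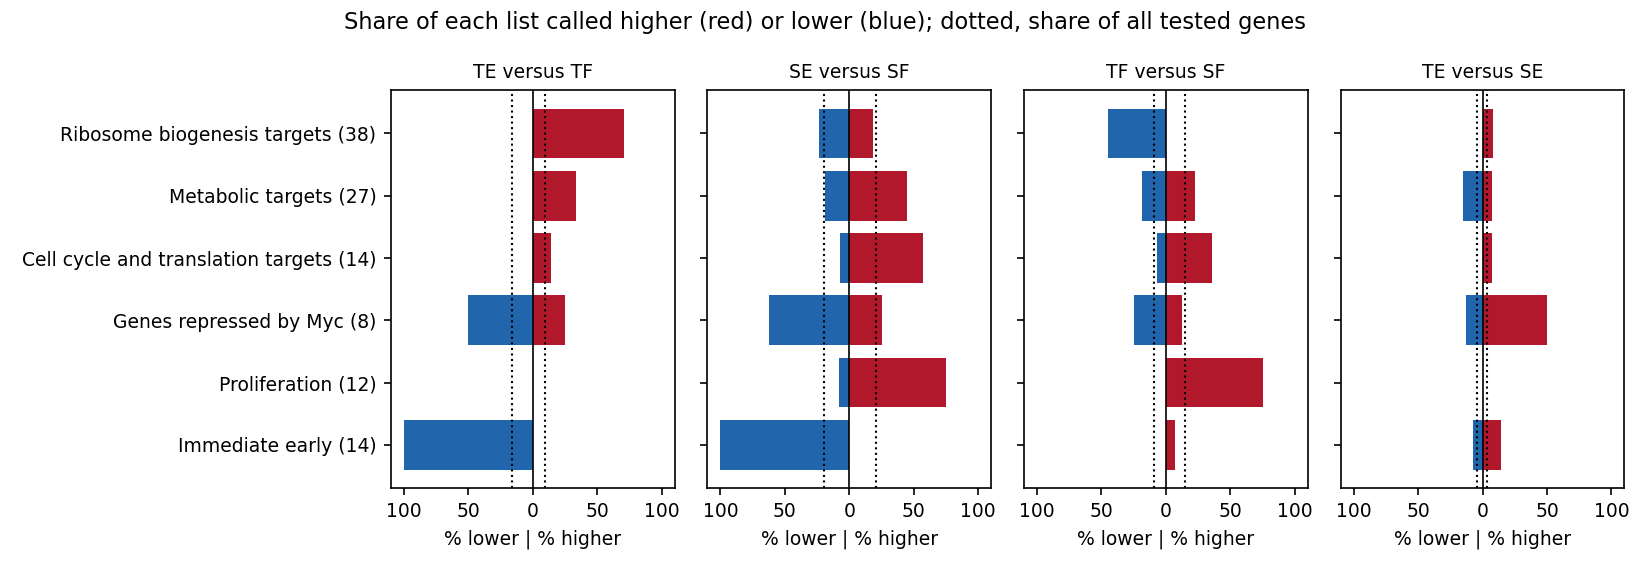
Percent of each gene list called higher (red, to the right) or lower (blue, to the left) in 4 comparisons, with the number of genes in parentheses and dotted lines at the percent of all tested genes called in each direction. Ribosome targets are higher in 27 of 38 in TE versus TF, are split in SE versus SF and are lower in 17 of 38 in TF versus SF, and all 14 immediate early genes are lower after expansion.

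Likeness of pattern was measured over the 8 libraries as the root mean square difference of log2(CPM + 0.5), each gene centred on its mean, among 11461 genes with a mean of at least 5 CPM. Closest to Myc was Sowahc (0.288), at 169 and 190 CPM in SF and 9.72 to 11.3 in the expanded libraries, followed by Syne2 (0.354). Closest to Mycl were Lrrn1 (0.378) and Cacng1 (0.399), which codes for a calcium channel subunit of skeletal muscle. Closest to Mycn were Cadps2 (0.329), at 18.6 and 20.3 CPM in TE and 0.141 and 0.915 in SE, and Apobec1 (0.405). Closest to Mxd3 were Nt5dc2 (0.295) and Akr7a5 (0.344), to Mxd1 Vash1 (0.371) and Trim21 (0.399), and to Mxd4 Mospd3 (0.217) and Gde1 (0.257). Closest to Max were Sec24a (0.106) and Tacc1 (0.108), to Mnt Prr14l (0.121) and Pigo (0.127), and to Mga Fars2 (0.0943) and Trpm7 (0.116). Genes that vary little lie close to many others, so the small values of Max, Mnt and Mga are not a closer relation than those of Myc.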

How the data were processed

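RNA-seq of 8 libraries, 2 in each of the groups TF, TE, SF and SE, was read from 1 table. The authors deposited an estimated count for each gene and library, not normalized, made from a strand-specific total RNA kit read from both ends. The submitters' processing notes name CASAVA, kallisto 0.44.0 and the builds GRCm38 and mm10. The annotation and strand setting are not given in the sources used here. Such counts share reads between transcripts, so genes with near-identical copies are uncertain.

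Counts were rounded, filtered with filterByExpr, scaled by TMM and tested with edgeR 4.0.16 (quasi-likelihood, 1 fit over the 4 groups, limma 3.58.1, R 4.3.3) and Benjamini-Hochberg adjustment over 17582 genes. Alternatives were median-ratio scaling, no filter, DESeq2 1.42.0, fits of only the 2 groups compared, glmTreat, a replicate block, other gene lengths and each library left out. The fit was checked on simulated data. Gene lengths and positions came from GENCODE M21 (GRCm38). Totals were 11930961 to 21146632 counts, and limits of detection cover counting error only.

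The network genes and all lists were chosen with earlier results of these data known. Named genes were the network and its Mlx branch. To these were added, for each list, the called genes with the largest fold, 2 for each effect of expansion and 1 for each other comparison, and the 2 genes closest in pattern to each network gene.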

Additional observations from a re-analysis of the deposited data

Results flagged for a closer look

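The effects of expansion in the 2 origins were compared gene by gene as the log2 change of TE versus TF minus that of SE versus SF, in the edgeR fit over all 17582 genes. For network genes these are a description, since the genes were chosen with the values known. The lists around them were chosen with earlier results known too. The difference was 2.98 for Myc, at least 6.42 for Mycn with SE at its limit of detection, -4.65 for Mycl, -4.88 for Mxd3 and -2.23 for Mxd4. Of the changes behind these differences, that of Mxd3 in TE versus TF (-1.03) and that of Mxd4 in SE versus SF (0.53) were not called.

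Genes around the network for which the test of the difference passed were Mxi1 (-1.31), Mlxip (1.88), Ing1, which codes for a Sin3 subunit (-1.36), Cbx3 (-1.60), Plk1 (-3.40), Rrp9 (2.68), Eno1 (-2.86), Plk4 (-3.34), Cdkn2b (-5.46), Mki67 (-5.05) and the stress transcription factor gene Atf3 (3.46). Cbx3 and Eno1 have near-identical copies, so their counts are uncertain. Plk1, Plk4, Mki67 and Cdkn2b were lowest in SF, with Plk1 at 3.56 and 0.673 CPM and Plk4 at 4.07 and 0.875 CPM there. The Plk1 call was lost without either TE library (-3.45 and -3.34), and that of Ing1 without any 1 of the TF and TE libraries or SF replicate 1 (-1.14 to -1.54).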

How the results depend on the processing

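No called log2 fold change of a network gene changed sign under any alternative run. The count of genes called in TE versus SE, 1268, was 2260 without a filter on low counts (902 higher, 1358 lower) and 2163 with DESeq2 (900 higher, 1263 lower). With 1 library left out at a time, the genes called ran from 2739 to 5439 in TE versus TF (4581 with all libraries), lowest without TE replicate 2, from 2639 to 5072 in TF versus SF (4261), lowest without TF replicate 1, from 653 to 1698 in TE versus SE (1268), lowest without TE replicate 2, and from 1467 to 2996 for the difference between the effects of expansion (2517), lowest without TE replicate 2. The targets of Myc called ran from 19 to 45 in TE versus TF (38), from 22 to 39 in TF versus SF (34) and from 3 to 12 in TE versus SE (10). A group left with 1 library is assumed to vary like the others. The cause of these shifts was not tested.

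Median-ratio scaling moved the median of all genes by -0.19 in SE versus SF, -0.16 in TF versus SF and 0.14 for the difference of effects, on the log2 scale. In TF versus SF it gave 2110 genes higher and 1943 lower, in place of 2655 and 1606. Max in TE versus TF was called with median-ratio scaling (-0.60), DESeq2 (-0.60) or only the 2 groups compared (-0.56). Max in SE versus SF was not called without the filter (-0.65), with only the 2 groups (-0.65) or with glmTreat. Mxd1 was called in TE versus SE without the filter (1.48), with DESeq2 (1.46), with only the 2 groups (1.47) and without either TF library (1.49), and was not called in TF versus SF with only the 2 groups (1.52). In TE versus TF, glmTreat called 2 coactivators (4 as reported) and 1 gene that acts on Myc RNA (3), the fit of only the 2 groups called 7 Sin3 genes (4) and 4 partners of Mga (1), and DESeq2 called 5 immediate early genes in TF versus SF (1).

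The labels number the replicates without saying that a number pairs libraries, and deviations of same-numbered libraries correlated between -0.0201 and 0.0322. With the replicate number as a block, 4321 genes were called in TE versus TF, 6757 in SE versus SF, 3979 in TF versus SF, 1205 in TE versus SE and 2327 for the difference of effects, and the calls of the network genes were the same.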
